A study of Homo sapiens with 12 samples.

Results

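The levels of 10 genes that mark where a cell stands between an epithelial and a mesenchymal state were followed across the 12 arrays of the series. They were the cadherins CDH1 and CDH2, the adhesion molecule EPCAM, the filament proteins VIM and ACTA2, the matrix protein FN1, the transcription factors ZEB1, SNAI2 and TWIST1, and the receptor kinase AXL. Every probe assigned to 1 of these 10 genes was taken, whatever its signal, which gave 16 of the 48803 probes on the array. The annotation names 18852 genes in all. The largest differences between EZH2 siRNA and control siRNA among these probes were in AXL, whose 2 probes gave values 1.66-fold and 1.53-fold lower after the EZH2 siRNA. CDH2 and 1 of the 2 VIM probes were lower with EZH2 siRNA than in untransfected cells, and neither passed the test against control siRNA. None of these AXL, CDH2 and VIM differences passed the test without the 3 dimmest arrays or under a 75th percentile scaling. The probes of CDH1 and FN1 were above background on too few arrays to be tested, and EPCAM, ZEB1, SNAI2, TWIST1 and ACTA2 did not pass the test in any of the 3 comparisons.

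The cells were SKOV3ip, a subline of the human ovarian carcinoma line SKOV3 that was recovered from the abdominal cavity of mice. The 3 groups were SKOV3ip cells with no siRNA, the same line transfected with a scrambled siRNA (here control siRNA), and the line transfected with an siRNA against EZH2. Each group had 4 arrays, numbered 1 to 4 as in the sample names, of total RNA on an Illumina bead array. The sample titles say SKOV3ip and the source labels say SKOV3, and no allele, dose, transfection time or siRNA sequence was given. The labels do not say that the 4 arrays of a group were separate cultures, so a p-value here rests on array-to-array spread that could be technical only. The study is titled for the part of EZH2 in angiogenesis. EZH2 is the enzyme of Polycomb repressive complex 2 that methylates histone H3 and keeps genes silent.

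Epithelial cells are held together by E-cadherin, the product of CDH1, and in an epithelial-mesenchymal transition they lose it and gain N-cadherin (CDH2), the filament protein vimentin (VIM) and a fibronectin matrix (FN1). The transcription factors ZEB1, SNAI2 (Slug) and TWIST1 bind E-box motifs and repress CDH1, and AXL is a receptor kinase that mesenchymal tumour cells often carry. In ovarian carcinoma many tumours and lines show markers of both states at once. EZH2 has been studied as a repressor of CDH1 in other tumour types. All levels below are log2 intensities after background correction with an added offset of 50 and quantile normalisation, and a log2 difference is the first group minus the second. A probe was called when its limma p, adjusted by the Benjamini-Hochberg method over 17293 tested probes, was under 0.05. Levels are never compared between different probes.

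EZH2, the target of the siRNA, had 3 probes, all tested. ILMN_1708105 read 7.95, 7.77, 7.86 and 8.36 on untransfected arrays 1 to 4, 7.47, 7.67, 7.73 and 7.36 with control siRNA, and 6.51, 6.80, 6.95 and 6.45 with EZH2 siRNA. On this probe the 4 EZH2 siRNA arrays were the lowest, and the control arrays also lay below the untransfected ones. The log2 difference was -0.88 against control siRNA (adjusted p = 0.00131) and -1.31 against untransfected cells (adjusted p = 3.39e-06). ILMN_2364529 was at -0.67 and -1.29 (adjusted p = 0.0173 and 1.02e-05), and it was also called lower in control than in untransfected cells (-0.62, adjusted p = 0.0192). ILMN_1652913 was called against untransfected cells (-0.95, adjusted p = 0.000317) but not against control siRNA (-0.53, adjusted p = 0.0590), where the groups overlapped: EZH2 siRNA arrays 2 and 3, at 6.73 and 6.69, exceeded control array 4 at 6.66. Arrays differed in brightness: the mean raw signal of an untransfected array was 299 ± 106 intensity units (SD, n = 4), that of a control array 327 ± 41.7 and that of an EZH2 siRNA array 240 ± 50.2. The 3 dimmest arrays were untransfected array 4 at 156.7, EZH2 siRNA array 1 at 186 and EZH2 siRNA array 4 at 209.5 units. Array brightness moved with the EZH2 siRNA group: its arrays, at most 284 units, were each dimmer than every control array, at least 291 units. Fits without the 3 dimmest arrays and with brightness as a covariate were among the alternatives. Across all 48803 probes, tested or not, normalised arrays correlated at 0.980 to 0.992 inside a group and at 0.971 to 0.989 between groups. Precision is limited by the number of arrays, with a median standard error of 0.13 for a log2 difference.

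The RNA carried the markers of the labelled cell type. All 6 ovarian carcinoma markers on the list were above background on at least some arrays, with the keratins KRT7, KRT8 and KRT18, the receptor ERBB2 and the lineage factor PAX8 on all 12 arrays and the mucin MUC16 on 6. Their summed raw signal ranged from 6079 to 19299.6 units in untransfected cells, 13349 to 19421 with control siRNA and 9239 to 13959 with EZH2 siRNA. Fibroblasts also carry VIM, CDH2 and AXL. Of 7 fibroblast markers PDGFRA was above background on 11 arrays (mean raw signal 91.9 units on untransfected, 130.5 on control and 88.7 on EZH2 siRNA arrays). COL1A1 and FAP were on 2 arrays each, DCN on 1, and PDGFRB, LUM and THY1 on 0, and the summed signal of the 7 was 333 to 477, 411 to 545 and 372 to 444 units in the same order of groups. Of 7 endothelial markers TIE1 was on 11 arrays, PECAM1 on 9, KDR on 2, TEK on 1 and CDH5, VWF and CLDN5 on 0, with sums of 393 to 593, 426 to 516 and 380.3 to 442 units. Of 5 leukocyte markers on the array PTPRC, CD14, CD3E and ITGAM were on 0 arrays and CD68 on all 12, with sums of 409 to 1394, 1354 to 2055 and 932 to 1729 units. The 5 mesothelial markers summed to 529 to 1672, 1312 to 2018 and 711 to 1371 units, and MSLN and LRRN4 were on all 12 arrays, CALB2 and UPK3B on 11 and WT1 on 9. No gene of these 5 lists was called between EZH2 and control siRNA, where 4.89% of all genes with a tested probe were. That share was 18.8% for EZH2 siRNA against untransfected cells and 7.86% for control siRNA against untransfected cells. Against untransfected cells PAX8, ERBB2 and CD68 rose with EZH2 siRNA (log2 differences of 0.53, 0.50 and 1.05) and TIE1, an endothelial receptor, fell (-0.52). In control against untransfected cells PAX8, CD68 and MSLN rose (0.66, 0.78 and 0.52) and TIE1 and KRT7 fell (-0.52 and -0.53). The part of these genes in the results below was not tested. In a bulk sample fewer cells of a type and less RNA per cell cannot be told apart.

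**Figure D1:**
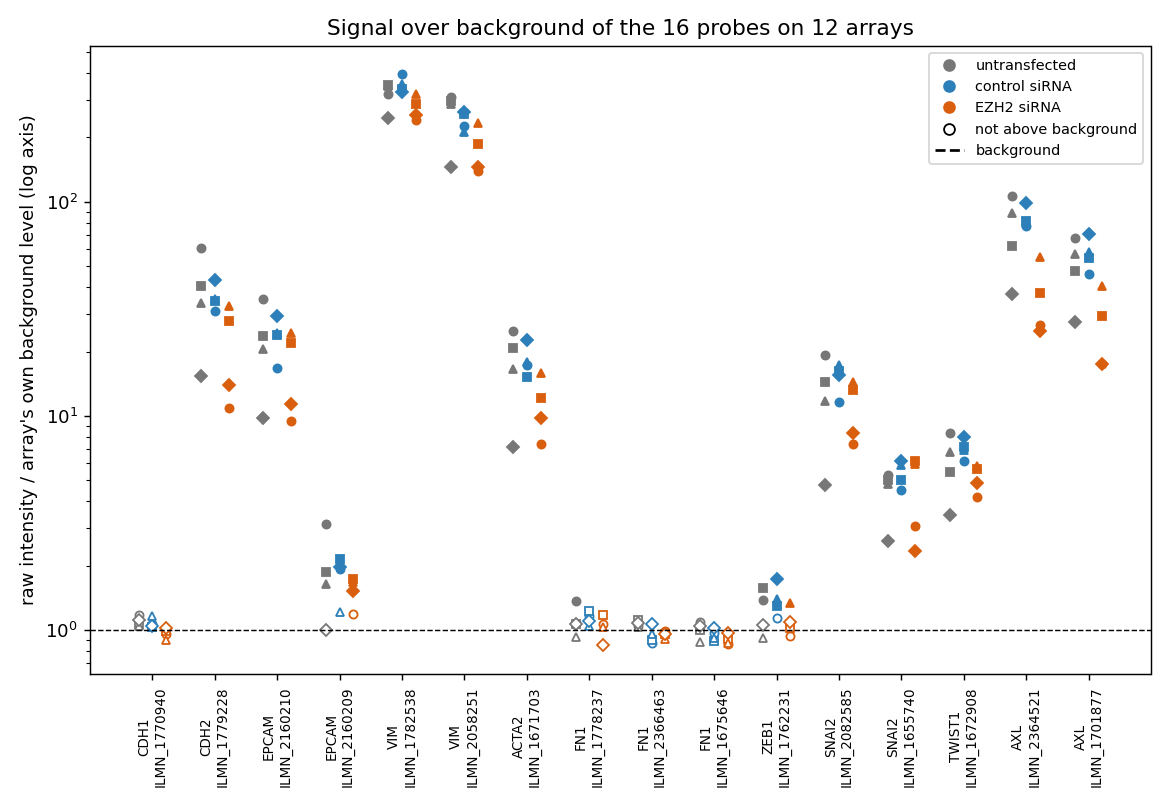
Raw intensity of each of the 16 probes divided by the background level of its array (log axis), with 1 point per array, coloured by group and open where the array did not put the probe above background. CDH1 and the 3 FN1 probes sit at the background line, and ZEB1 and the second EPCAM probe lie near it, above background on some arrays only. The other probes are well above it on all 12 arrays.

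Of the 16 probes 12 were above background on at least 4 of the 12 arrays and were tested, and these cover 8 of the 10 genes. Against control siRNA, 2 of the 12 probes were called with EZH2 siRNA, where 4.24% of all tested probes were called, and both fell, where 2.40% of all tested probes fell and 1.84% rose. Both are AXL probes, so the count stands for 1 gene. Another probe, CDH2, had an unadjusted p under 0.05. The median log2 difference of the 12 was -0.11, beside -0.02 over all tested probes. Between control siRNA and untransfected cells 0 of the 12 were called by limma, where 6.52% of all tested probes were (3.89% higher and 2.63% lower), and 1 had an unadjusted p under 0.05. Against untransfected cells 4 of the 12 fell with EZH2 siRNA and 0 rose, where 17.0% of all tested probes were called, 8.85% higher and 8.17% lower. These were both AXL probes, CDH2 and 1 VIM probe. Every pair of these comparisons has 1 group of arrays in common, so their values are not independent.

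**Figure D2:**
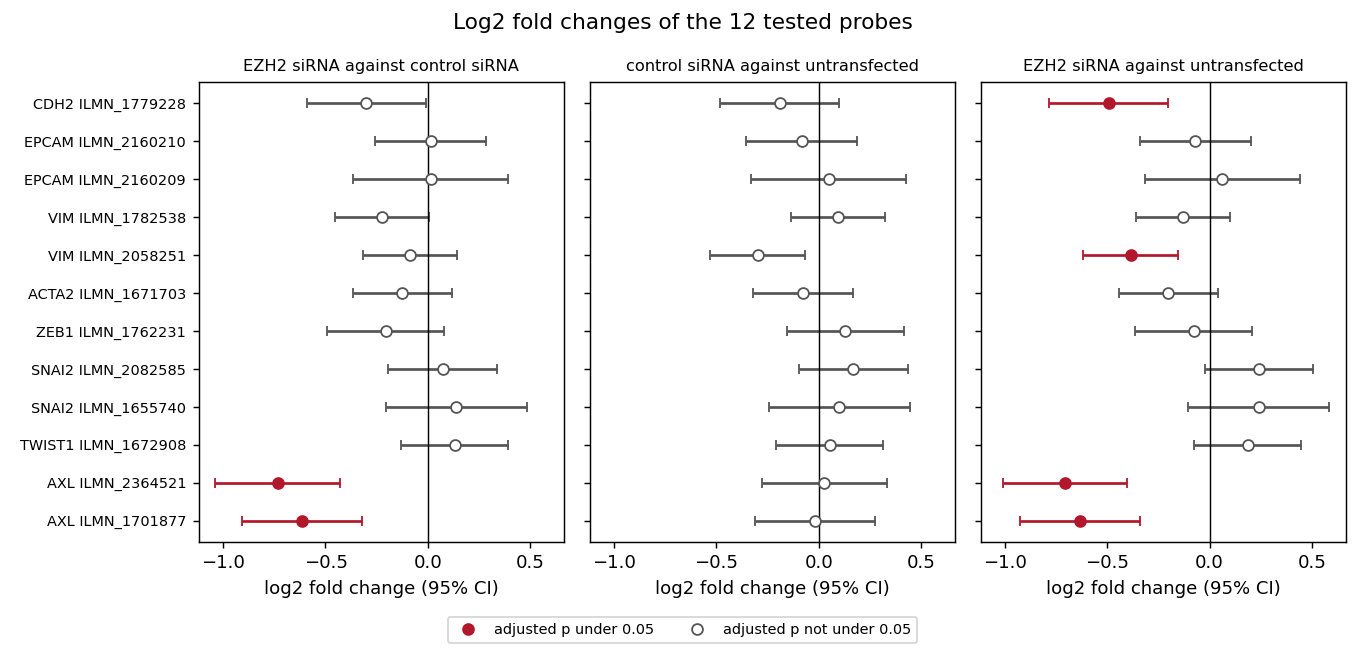
Log2 difference (first group minus second, with the 95% confidence interval) of the 12 tested probes in the 3 comparisons, filled where the adjusted p was under 0.05. The 2 AXL probes stand at -0.73 and -0.61 against control siRNA and near 0 between control siRNA and untransfected cells, and CDH2 and VIM ILMN_2058251 are filled against untransfected cells only.

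Among the epithelial adhesion genes, CDH1 encodes E-cadherin, the junction protein whose loss defines the transition. Its probe ILMN_1770940 was above background on 0 of 12 arrays and was not tested. Raw signal was 67.7, 59.9, 56.8 and 55.9 units in untransfected cells, 58.5, 56.6, 62.8 and 60.0 with control siRNA, and 49.2, 53.8, 48.6 and 53.1 with EZH2 siRNA. That is 0.90 to 1.18 times the background of each array, so a level of CDH1 mRNA could not be read from this probe in any group, and a change at a low level would not be detectable. With no filter on dim probes its adjusted p was 0.635 against control siRNA and 0.336 against untransfected cells.

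EPCAM encodes an epithelial surface glycoprotein used to catch carcinoma cells. Its brighter probe ILMN_2160210 read 10.21, 10.06, 10.03 and 10.12 in untransfected cells, 9.81, 10.11, 10.11 and 10.05 with control siRNA, and 9.80, 10.25, 10.27 and 9.82 with EZH2 siRNA. The 3 groups overlapped. EZH2 siRNA arrays 2 and 3 were the highest 2 of the 12, and arrays 1 and 4 of the same group, the dim ones, were at the low end with control array 1. The group means were 10.10 ± 0.08, 10.02 ± 0.15 and 10.03 ± 0.26 (SD, n = 4). The log2 difference between EZH2 and control siRNA was 0.01, with a 95% interval of -0.26 to 0.28 (adjusted p = 0.973). It was -0.31 under a 75th percentile scaling, a setting that puts the median of all tested probes at -0.11 in this comparison. Against untransfected cells it turned to 0.16 without the 3 dimmest arrays. The second probe, ILMN_2160209, stayed near background, at 1.0 to 3.14 times its level, and was above it on 9 arrays, 3 in each group. Its difference was 0.01 with an interval of -0.36 to 0.39, and the 2 EPCAM probes did not follow each other over the 12 arrays (Pearson r = 0.034).

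CDH2 encodes N-cadherin, which joins mesenchymal and neural cells and replaces E-cadherin during the transition. Its only probe, ILMN_1779228, read 11.02, 10.82, 10.71 and 10.77 in untransfected cells, 10.65, 10.63, 10.65 and 10.64 with control siRNA, and 10.01, 10.57, 10.68 and 10.10 with EZH2 siRNA. The 4 control arrays were almost equal (10.64 ± 0.01) and all lay below the untransfected ones (10.83 ± 0.13). The EZH2 siRNA arrays were spread over the widest range of the 3 groups (10.34 ± 0.33): arrays 2 and 3 sat beside the control arrays, and the dim arrays 1 and 4 lay far below.

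Against untransfected cells CDH2 fell 1.41-fold, a log2 difference of -0.49 (SE 0.139, adjusted p = 0.0189). The 4 EZH2 siRNA arrays all lay below the 4 untransfected arrays, and the exact two-sided permutation p was 0.0286, the smallest that 4 arrays against 4 can give. Over all tested probes 16.5% separated these 2 groups without overlap. Against control siRNA the difference was -0.30 with an interval of -0.59 to -0.01 (adjusted p = 0.243, exact permutation p = 0.143). Without the 3 dimmest arrays the difference was -0.02 against control siRNA (adjusted p = 0.976) and -0.23 against untransfected cells (adjusted p = 0.383). The call against untransfected cells was also lost without untransfected array 1 (adjusted p = 0.0600), EZH2 siRNA array 1 (0.0844) or EZH2 siRNA array 4 (0.0726), and in 8 of the 27 alternatives in all. With array brightness as a covariate the value was -0.39 (adjusted p = 0.0392). Between control siRNA and untransfected cells the 4 control arrays also lay lower, where 13.9% of all tested probes separated the groups, with a difference of -0.19 (adjusted p = 0.505, exact permutation p = 0.0286).

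VIM encodes vimentin, the intermediate filament of mesenchymal cells. Both probes were bright: the raw signal of ILMN_1782538 was 51.3% to 87.1% of the brightest signal on its array, and that of ILMN_2058251 was 30.3% to 71.1%. Saturation flags are not among the values used here. ILMN_2058251 read 13.80, 13.77, 13.78 and 13.77 in untransfected cells, 13.49, 13.57, 13.36 and 13.51 with control siRNA, and 13.39, 13.22, 13.61 and 13.36 with EZH2 siRNA. All 8 transfected arrays lay below the 4 untransfected arrays, and the transfected groups overlapped. Of all tested probes, 16.5% separated EZH2 siRNA arrays and 13.9% control siRNA arrays from untransfected ones without overlap. This probe fell 1.31-fold with EZH2 siRNA against untransfected cells, a log2 difference of -0.39 (SE 0.11, adjusted p = 0.0205, exact permutation p = 0.0286). The control siRNA difference from untransfected cells was -0.30, with an interval of -0.53 to -0.07 (adjusted p = 0.121, exact permutation p = 0.0286). Between EZH2 and control siRNA it was -0.09, with an interval of -0.32 to 0.14.

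The other VIM probe gave a different order. ILMN_1782538 read 13.94, 14.07, 14.09 and 14.15 in untransfected cells, 14.28, 14.01, 14.19 and 14.14 with control siRNA, and 13.93, 13.81, 14.07 and 13.92 with EZH2 siRNA. The control arrays were here the highest on average, the EZH2 siRNA arrays the lowest, and each pair of groups overlapped. Its difference was -0.22 against control siRNA (interval -0.45 to 0.00, adjusted p = 0.277) and -0.13 against untransfected cells (adjusted p = 0.464). The 2 VIM probes correlated at r = 0.294 over the 12 arrays, so the fall against untransfected cells rests on 1 of 2 probes. Its call was lost without EZH2 siRNA array 1 (adjusted p = 0.0544), array 2 (0.0574) or array 4 (0.0593), and without the 3 dimmest arrays (-0.33, adjusted p = 0.197). In all, 9 of the 27 alternatives ended it, among them the 75th percentile scaling, cyclic loess, each array's own background and a fit of the 2 groups alone.

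ACTA2 encodes smooth muscle actin, the filament of contractile cells and myofibroblasts. Its probe ILMN_1671703 read 9.73, 9.88, 9.73 and 9.64 in untransfected cells, 9.85, 9.46, 9.68 and 9.68 with control siRNA, and 9.46, 9.42, 9.69 and 9.61 with EZH2 siRNA. The groups overlapped. The log2 difference was -0.12 against control siRNA (interval -0.37 to 0.12, adjusted p = 0.629) and -0.20 against untransfected cells (interval -0.44 to 0.04, adjusted p = 0.254). FN1 encodes fibronectin, a matrix protein that mesenchymal cells secrete. Its 3 probes gave raw signals of 44.3 to 78.7, 47.4 to 62.7 and 43.9 to 62.5 units, and were above background on 1, 0 and 0 of the 12 arrays. FN1 mRNA was thus not detectable in any group beyond 1 probe on untransfected array 1, and none of the 3 probes was tested.

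**Figure D3:**
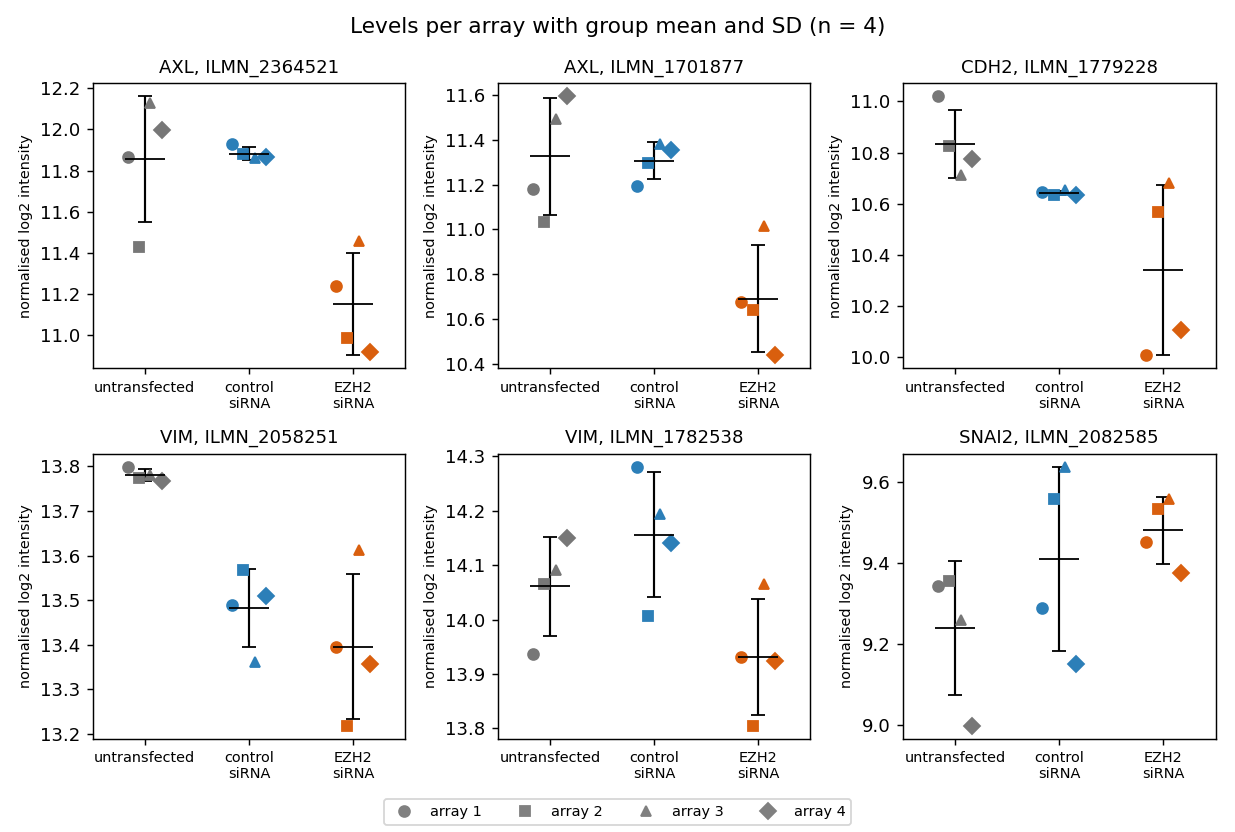
Normalised log2 intensity of 6 probes on each array, with the group mean (long bar) and SD (whiskers, n = 4) and a marker shape for each array number. Both AXL panels show the EZH2 siRNA arrays below the control arrays, the CDH2 panel shows EZH2 siRNA arrays 1 and 4 apart from arrays 2 and 3, and the 2 VIM panels differ in their order of groups.

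The transcription factors among the members, SNAI2, TWIST1 and ZEB1, did not pass the test in any comparison. Of these, SNAI2 (Slug) represses CDH1 in many epithelial cells. Its brighter probe ILMN_2082585 read 9.34, 9.36, 9.26 and 9.0 in untransfected cells, 9.29, 9.56, 9.64 and 9.15 with control siRNA, and 9.45, 9.53, 9.56 and 9.38 with EZH2 siRNA. The EZH2 siRNA arrays all lay above the untransfected arrays and inside the range of the control arrays. Of all tested probes, 16.5% separated EZH2 siRNA from untransfected arrays without overlap. The difference was 0.24 against untransfected cells (interval -0.02 to 0.51, adjusted p = 0.210, exact permutation p = 0.0286) and 0.07 against control siRNA (interval -0.19 to 0.34, adjusted p = 0.820). It turned to -0.26 against control siRNA under the 75th percentile scaling.

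The second SNAI2 probe, ILMN_1655740, read 7.62, 7.92, 8.0 and 8.03 in untransfected cells, 8.02, 7.93, 8.14 and 7.89 with control siRNA, and 8.13, 8.49, 8.38 and 7.53 with EZH2 siRNA. EZH2 siRNA arrays 2 and 3 were the highest of the 12 and array 4 the lowest. The difference from untransfected cells was 0.24 (adjusted p = 0.351), and it was 0.44 without EZH2 siRNA array 4 (adjusted p = 0.0386) and 0.62 without the 3 dimmest arrays (adjusted p = 0.0221). Those 2 fits were the ones of the 27 alternatives in which a probe of the 12 was called higher. The 2 SNAI2 probes correlated at r = 0.373 over the arrays.

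TWIST1, a basic helix-loop-helix factor that induces CDH2, was read by ILMN_1672908 at 8.19, 8.04, 8.48 and 8.50 in untransfected cells, 8.43, 8.40, 8.34 and 8.24 with control siRNA, and 8.63, 8.36, 8.35 and 8.61 with EZH2 siRNA. The groups overlapped, and the dim EZH2 siRNA arrays 1 and 4 were the highest 2 of the 12. The difference was 0.13 against control siRNA (interval -0.13 to 0.39, adjusted p = 0.638). It turned to -0.00066 without the 3 dimmest arrays and to -0.028 with brightness as a covariate. ZEB1, a zinc finger repressor of CDH1, stood near background. Its probe ILMN_1762231 was above it on 6 of the 12 arrays, 2 untransfected, 3 control and 1 EZH2 siRNA, and ranged from 5.93 to 6.53. Its difference was -0.21 against control siRNA (interval -0.49 to 0.08, adjusted p = 0.450). Against untransfected cells it turned to 0.0033 with brightness as a covariate, and an offset of 50 shrinks differences at this signal.

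AXL encodes a receptor tyrosine kinase that binds GAS6 and is often raised in mesenchymal and drug-resistant carcinoma cells. The probe ILMN_2364521 read 11.87, 11.43, 12.13 and 11.997 in untransfected cells, 11.93, 11.88, 11.86 and 11.86 with control siRNA, and 11.24, 10.99, 11.46 and 10.92 with EZH2 siRNA. The 4 values with EZH2 siRNA were each under the lowest control value, and EZH2 siRNA array 3 lay just above untransfected array 2. AXL on this probe was 1.66-fold lower with EZH2 than with control siRNA, a log2 difference of -0.73 (SE 0.146, interval -1.04 to -0.43, adjusted p = 0.0061). The exact permutation p was 0.0286, and 10.9% of all tested probes separated these 2 groups. Against untransfected cells it was -0.71 (SE 0.146, adjusted p = 0.0024, exact permutation p = 0.0571).

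The second AXL probe, ILMN_1701877, followed the first over the 12 arrays at r = 0.958. It read 11.18, 11.04, 11.49 and 11.59 in untransfected cells, 11.19, 11.30, 11.38 and 11.35 with control siRNA, and 10.68, 10.64, 11.01 and 10.44 with EZH2 siRNA. The EZH2 siRNA arrays lay below every array of both other groups. Of all tested probes, 10.9% separated EZH2 siRNA from control arrays and 16.5% from untransfected arrays. The difference was -0.61 against control siRNA (SE 0.140, adjusted p = 0.0155), 1.53-fold lower, and -0.63 against untransfected cells (SE 0.140, adjusted p = 0.0040). Control siRNA and untransfected cells differed by 0.03 and -0.02 on the 2 probes, with intervals of -0.28 to 0.33 and -0.31 to 0.27. EZH2 siRNA array 4 was the lowest of the 12 on both probes and array 3 the highest of its group, and untransfected array 2 was the lowest of the arrays without EZH2 siRNA.

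AXL stayed lower with EZH2 siRNA under each of the 27 alternatives, between -1.02 and -0.65 on the first probe and between -0.94 and -0.48 on the second. On the first probe the adjusted p was above 0.05 in 2 of them, at 0.0517 under the 75th percentile scaling and 0.102 without the 3 dimmest arrays (difference -0.66). With array brightness as a covariate the first probe stood at -0.79 (adjusted p = 0.00879) and the second at -0.68 (adjusted p = 0.0169). The second probe's call was also lost when control array 2 (adjusted p = 0.0516), 3 (0.0604) or 4 (0.0506) or EZH2 siRNA array 1 (0.0568) or 4 (0.0686) was left out. Without the 3 dimmest arrays it stood at -0.48 (adjusted p = 0.188), and 9 of the 27 alternatives ended its call. Against untransfected cells the 2 probes were at -0.58 and -0.41 without these arrays (adjusted p = 0.0726 and 0.157).

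**Figure D4:**
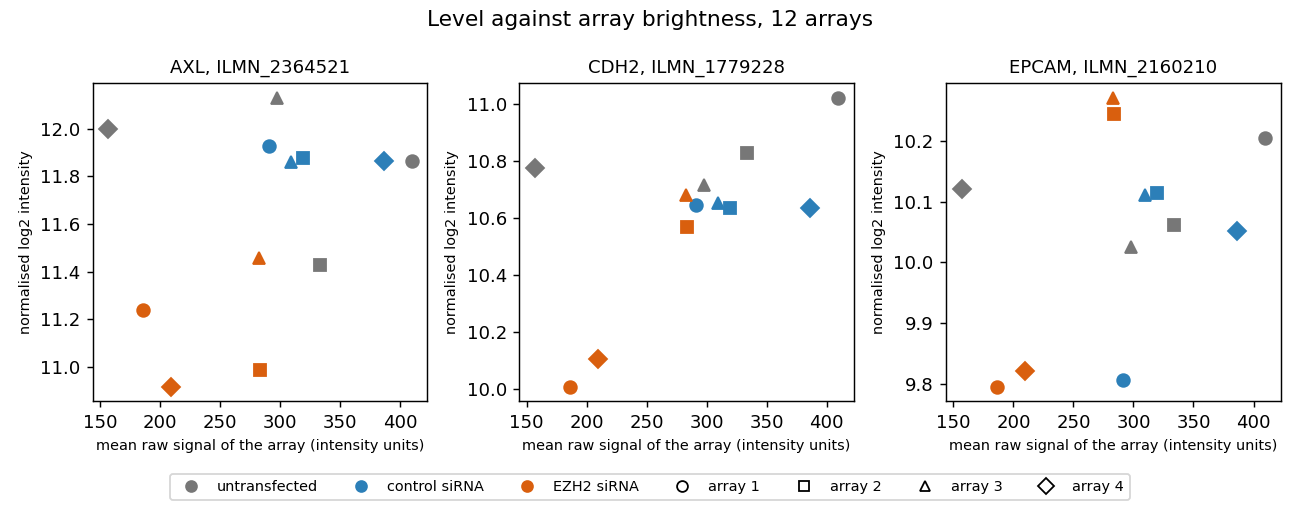
Normalised log2 intensity of 3 probes against the mean raw signal of the array (intensity units), coloured by group, 12 arrays. AXL is low on every EZH2 siRNA array, each of them dimmer than every control array, and high on the dim untransfected array 4. CDH2 and EPCAM are low on the dim EZH2 siRNA arrays 1 and 4 and higher on arrays 2 and 3, where EPCAM has its 2 highest values.

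AXL and CDH2 read differently on EZH2 siRNA arrays 2 and 3. The AXL probe ILMN_2364521 was below all control arrays on EZH2 siRNA arrays 2 and 3 (10.99 and 11.46) and on the dimmer arrays 1 and 4 (11.24 and 10.92). Every EZH2 siRNA array (mean raw signal 186 to 284 units) was itself dimmer than every control array (291 to 386 units). The part of brightness in the AXL and CDH2 differences from control siRNA was not tested. The dim untransfected array 4 had 11.997. CDH2 read 10.57 and 10.68 on EZH2 siRNA arrays 2 and 3, beside 10.63 to 10.65 in control cells, and 10.01 and 10.10 on arrays 1 and 4, but 10.77 on the dim untransfected array 4. Without the 3 dimmest arrays the calls of AXL, CDH2 and VIM were all lost, and with brightness as a covariate they were kept.

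The promoters of the members that passed a test are shown because SNAI2, ZEB1 and TWIST1 act through E-boxes and because Polycomb complexes are found at CpG-rich promoters. RefSeq gave promoter windows on GRCh38.p14, from 250 bases before to 50 after the start of transcription, for 6 of the 10 genes: CDH2, VIM, ACTA2, FN1, ZEB1 and AXL. The E-box CAGGTG and, separately, the GC box GGGCGG were searched on both strands, that is also as their reverse complements. Their matches do not overlap in the 3 windows shown. No other E-box sequence was searched, so E-box counts below are of CAGGTG only. Of 35116 windows of 300 bases 20.6% held the E-box and 45.0% the GC box, and the median number of CpG dinucleotides was 14. The window of AXL is chr19:41218973-41219272 on the plus strand, that of CDH2 is chr18:28177081-28177380 on the minus strand, and that of VIM is chr10:17227991-17228290 on the plus strand. For AXL and CDH2, which have 2 annotated starts each, it is the start farthest 5′. Capitals mark the motif matches, read 5′ to 3′ on the strand of the gene.
AXL: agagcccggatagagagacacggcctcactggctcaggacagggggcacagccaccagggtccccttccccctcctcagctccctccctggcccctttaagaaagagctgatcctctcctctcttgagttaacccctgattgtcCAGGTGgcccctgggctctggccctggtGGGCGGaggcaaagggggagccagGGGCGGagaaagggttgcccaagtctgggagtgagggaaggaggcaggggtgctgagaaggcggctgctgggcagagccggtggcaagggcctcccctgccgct
CDH2: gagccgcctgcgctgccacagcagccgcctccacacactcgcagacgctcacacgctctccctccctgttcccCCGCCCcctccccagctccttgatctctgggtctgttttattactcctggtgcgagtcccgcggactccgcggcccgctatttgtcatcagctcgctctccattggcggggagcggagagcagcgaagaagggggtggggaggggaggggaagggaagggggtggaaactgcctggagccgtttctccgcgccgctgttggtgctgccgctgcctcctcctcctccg
VIM: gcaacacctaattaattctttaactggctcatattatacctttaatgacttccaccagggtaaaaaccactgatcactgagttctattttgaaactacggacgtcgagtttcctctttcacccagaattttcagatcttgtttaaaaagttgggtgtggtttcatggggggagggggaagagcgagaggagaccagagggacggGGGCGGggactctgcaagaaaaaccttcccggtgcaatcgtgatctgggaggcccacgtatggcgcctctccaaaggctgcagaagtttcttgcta
AXL held 1 E-box, starting 106 bases before the start, 2 GC boxes at 78 and 54 bases before it, and 7 CpG, and the window of its other start held 0 of either motif and 17 CpG. CDH2 held 0 E-boxes, 1 GC box at 177 bases before the start and 23 CpG, and its other window held 0 of either motif and 4 CpG. VIM held 0 E-boxes, 1 GC box at 46 bases before the start and 10 CpG. FN1, which was not detected, had 38 CpG and 6 GC boxes in its window, and the 2 ACTA2 windows had 18 and 6 CpG and 2 and 0 GC boxes. Neither gene had a match of the E-box sequence CAGGTG. ZEB1 has 7 annotated starts, whose windows held 0 to 3 E-boxes, 0 to 3 GC boxes and 7 to 35 CpG. These are matches of letters in a window and show nothing about binding.

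Genes of the same pathway were read from lists, each gene on its brightest tested probe. The shares of all genes called, given with the first list, apply to every list. Of 34 other epithelial genes 32 were on the array, 22 were tested and 16 were above background on all 12 arrays, among them the keratins KRT7, KRT8, KRT18 and KRT19, desmoplakin DSP and the Kunitz-type protease inhibitor SPINT2. Another 7 were above background on 0 arrays, including the splicing regulators ESRP1 and ESRP2, the epithelial factor GRHL2 and occludin OCLN. Against control siRNA 1 rose with EZH2 siRNA and 0 fell, where 4.89% of all genes were called, 2.08% higher and 2.81% lower. The median difference was 0.16, beside -0.02 over all genes. The gene that rose was CLDN7, a claudin of epithelial tight junctions, at 0.44 (SE 0.108, adjusted p = 0.0239). Its probe was near background, above it on 8 of 12 arrays, with a mean raw signal of 65.9 units on untransfected, 72.8 on control and 82.4 on EZH2 siRNA arrays. Its call was lost without control array 2, 3 or 4 or EZH2 siRNA array 1 or 4 (adjusted p = 0.0772, 0.0783, 0.0707, 0.0753 and 0.0736), without the 3 dimmest arrays (0.41, adjusted p = 0.169) and with brightness as a covariate (0.35, adjusted p = 0.117). Against untransfected cells CLDN7 rose by 0.48 (adjusted p = 0.00464) and SPINT2 by 0.38 (adjusted p = 0.0195, 0.0548 without EZH2 siRNA array 1 and 0.0850 without the 3 dimmest arrays), where 18.8% of all genes were called, 10.2% higher and 8.60% lower. Between control siRNA and untransfected cells KRT7 fell by 0.53 (adjusted p = 0.0147, and 0.0585 and 0.0550 without control array 1 or 3), where 7.86% of all genes were called, 4.93% higher and 2.94% lower.

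Of 28 other mesenchymal genes 27 were on the array, 16 were tested and 11 were above background on all 12 arrays, among them the collagens COL6A1 and COL6A2, the matrix protein SPARC, the hyaluronan receptor CD44 and the galectin LGALS1. The fibroblast genes THY1, PDGFRB, LUM and BGN, the cadherin CDH11 and the crosslinking enzyme LOXL2 were above background on 0 arrays. Against control siRNA 2 of the 16 fell and 0 rose, with a median of -0.08. Over all genes 2.81% were called lower and 2.08% higher in that comparison. CALD1, which encodes the actin-binding protein caldesmon, fell by 0.76 (SE 0.154, adjusted p = 0.00697) and was at -0.79 without the 3 dimmest arrays (adjusted p = 0.0389). FSTL1, a secreted follistatin-like protein, stood at -0.52 (adjusted p = 0.0473), and 16 of its 27 alternatives put its adjusted p above 0.05, up to 0.200 without the 3 dimmest arrays. Against untransfected cells 3 fell and 1 rose, with a median of -0.08. Over all genes 8.60% were called lower and 10.2% higher there. FSTL1 was at -0.85 (adjusted p = 0.000462), CALD1 at -0.70 (adjusted p = 0.00401) and TGFBI, a matrix protein induced by TGF-beta, at -0.67 (adjusted p = 0.00193). S100A4, a calcium-binding protein of motile cells, rose by 0.50 (adjusted p = 0.00585) and stood at 0.44 without the 3 dimmest arrays (adjusted p = 0.0850). The other 12 of the 16 did not pass the test in that comparison.

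Of 16 other factors of the transition 14 were on the array and 6 were tested. SNAI1, SNAI3, ZEB2, PRRX1 and GATA6 were above background on 0 arrays. ETS1, an ETS factor that activates matrix protease genes, fell by 0.50 with EZH2 against control siRNA (adjusted p = 0.0212), and was higher by 0.48 in control than in untransfected cells (adjusted p = 0.0198). Its level with EZH2 siRNA, 10.52, was thus near the 10.54 of untransfected cells. The first call was lost without control array 2 or 3 or EZH2 siRNA array 1 (adjusted p = 0.0840, 0.0818 and 0.0852), or without the 3 dimmest arrays (0.0995). The second was lost without untransfected array 2 or 3 or control array 1, 2 or 3 (adjusted p = 0.0630, 0.0659, 0.0533, 0.0611 and 0.0686). TCF3, which encodes the E-box binding factor E2A, fell by 0.62 in control against untransfected cells (adjusted p = 0.0441), and lost that call in 12 of 27 alternatives, among them the fit without the 3 dimmest arrays (0.0803). KLF8 and SOX9 rose by 0.36 each against untransfected cells (adjusted p = 0.0479 and 0.0342), and lost the call in 21 and 12 alternatives, among them the fit without the 3 dimmest arrays (0.0905 and 0.192) and, for KLF8, brightness as a covariate (0.0851).

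**Figure D5:**
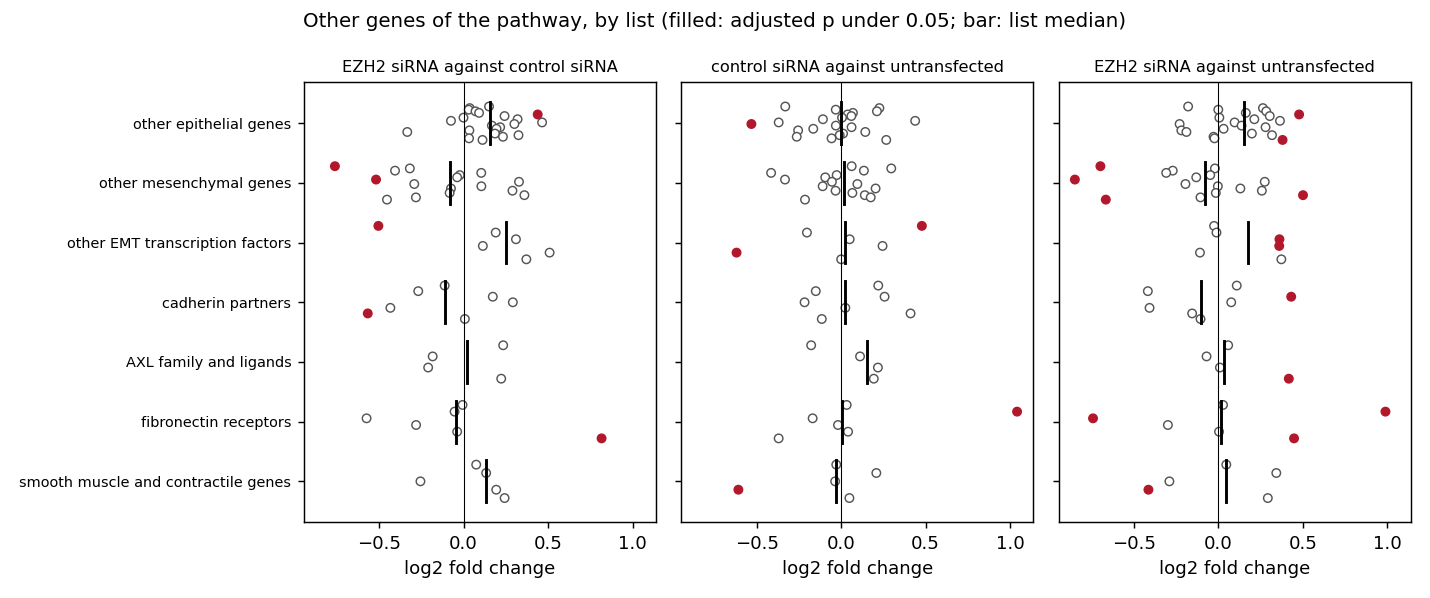
Log2 difference of each tested gene of 7 lists in the 3 comparisons, on its brightest tested probe, filled where the adjusted p was under 0.05, with a bar at the median of the list. Most genes lie within 0.5 of 0, CALD1 is the lowest mesenchymal gene against control siRNA, and ITGA5 is the highest of all lists in both comparisons with untransfected cells.

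The partners of the members were also read. Of 9 listed partners of cadherins 7 were tested. The catenins CTNNA1 and CTNNB1, which bind the tail of CDH1 and CDH2, did not pass in any comparison (-0.11 and -0.27 against control siRNA). Vinculin VCL, an actin linker, fell by 0.57 against control siRNA (adjusted p = 0.0185). It lost the call without control array 2, 3 or 4 or EZH2 siRNA array 1 (adjusted p = 0.0520, 0.0583, 0.0784 and 0.0969), without the 3 dimmest arrays (-0.46, adjusted p = 0.207) and with brightness as a covariate (-0.49, adjusted p = 0.0762). Plakoglobin JUP rose by 0.43 against untransfected cells (adjusted p = 0.0160), with an adjusted p of 0.0528 without untransfected array 4 0.0645 without EZH2 siRNA array 4 and 0.311 without the 3 dimmest arrays, where it stood at 0.26.

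For AXL the 4 relatives and ligands were all tested. The ligand GAS6 stood at 0.23 against control siRNA (adjusted p = 0.288), the related ligand PROS1 at -0.21 (adjusted p = 0.473), and the receptors TYRO3 and MERTK at 0.22 and -0.18 (adjusted p = 0.291 and 0.485). None of these 4 passed the test against control siRNA, where both AXL probes fell. TYRO3 rose by 0.42 against untransfected cells (adjusted p = 0.0145), and its adjusted p was 0.0617 without EZH2 siRNA array 4 and 0.160 without the 3 dimmest arrays. Whether AXL differs from its relatives was not tested.

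Among 6 receptors of fibronectin, all tested, the proteoglycan SDC4 rose by 0.82 with EZH2 against control siRNA (adjusted p = 0.0021), and stood at 0.58 without the 3 dimmest arrays (adjusted p = 0.0816). The integrin subunit ITGA5 rose by 1.04 in control cells and by 0.99 with EZH2 siRNA, each against untransfected cells (adjusted p = 0.000312 and 0.000306). ITGAV fell by 0.74 with EZH2 siRNA against untransfected cells (adjusted p = 0.0136), and lost the call without untransfected array 1 (0.0522) or EZH2 siRNA array 1 (0.0516), or without the 3 dimmest arrays (0.0775). SDC4 was higher by 0.45 than in untransfected cells (adjusted p = 0.0347), a call lost in 12 of 27 alternatives, among them the fit without the 3 dimmest arrays (0.22, adjusted p = 0.474) and brightness as a covariate (0.0658). Of 10 smooth muscle genes, the relatives of ACTA2, 5 were tested and CNN1, MYH11, ACTG2 and LMOD1 were above background on 0 arrays. None of the 5 passed against control siRNA, and TPM1, a tropomyosin, fell by 0.61 in control against untransfected cells (adjusted p = 0.0103, and 0.0519 without control array 4) and fell by 0.41 with EZH2 siRNA (adjusted p = 0.0468, a call lost in 19 of 27 alternatives, and at -0.27 without the 3 dimmest arrays, adjusted p = 0.343).

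For the 3 members with a called probe, the 3 genes whose level ran most like theirs were sought over the 12 arrays, each on its brightest tested probe. For VIM that is ILMN_1782538, which was not called in any comparison, and not the called ILMN_2058251. The 12 points share 3 groups, their brightness and their normalisation, so these values only describe. AXL ran most like PARD6G (Pearson r = 0.95), NIF3L1 (0.940) and LRRC57 (0.938). PARD6G, a polarity protein, was at -0.43 between EZH2 and control siRNA (adjusted p = 0.0330), LRRC57 at -0.43 (adjusted p = 0.0482) and NIF3L1 at -0.20 (adjusted p = 0.322). The calls of PARD6G and LRRC57 were lost in 10 and 18 of the 27 alternatives, among them the fit without the 3 dimmest arrays (0.184 and 0.137). CDH2 ran most like PRKRA (0.968), an activator of the kinase PKR, then COCH (0.95) and BRIX1 (0.943), a ribosome assembly factor. Against untransfected cells these were at -0.53, -0.39 and -0.62 (adjusted p = 0.0166, 0.0343 and 0.00789), and without the 3 dimmest arrays at -0.25, -0.18 and -0.33 (adjusted p = 0.394, 0.499 and 0.215). VIM on ILMN_1782538 ran most like SEC61A2 (0.922), SLC4A11 (0.903) and MTOR (0.895), none of which passed against control siRNA or untransfected cells.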

How the data were processed

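RNA of 12 SKOV3ip samples, 4 per group, was read on Illumina bead arrays of 48803 probes, and groups came from the sample titles. Per the submitters' processing notes the arrays were exported with BeadStudio 3.2. The raw table as deposited has an intensity for each probe on each array and no detection p-values, and how BeadStudio treated background is not stated in the sources used here. The other table, also deposited, is in log2 units, matches quantile-normalised log2 raw values within 5e-05, and was an alternative.

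Raw intensities were corrected with normexp (offset 50) and quantile-normalised with limma 3.58.1 under R 4.3.3. The offset shrinks differences of dim probes. Background was each array's most frequent signal with the spread below it mirrored above it, and a probe above it at p under 0.01 on at least 4 of 12 arrays was tested. That left 17293 probes tested and 31510 not. The platform annotation gave 1 symbol to 28098 probes, several to 13 and none to 20692, and 10964 genes had a tested probe. All 12 arrays entered 1 fit of 3 groups (lmFit and eBayes), with Benjamini-Hochberg adjustment over all tested probes. The fit was tested on simulated data. For single probes an exact permutation test (two-sided) was added.

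Named genes were every member, EZH2, up to 4 called genes per list and comparison with the largest change, and the 3 genes likest each member with a called probe. Members, lists and alternatives were chosen with earlier results of these data known. The 27 alternatives covered scaling, background, filters, the fit, array quality and each array left out. Promoter windows are RefSeq's on GRCh38.p14. Figures were drawn with matplotlib 3.10.9.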

Additional observations from a re-analysis of the deposited data

How the results depend on the processing

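Against control siRNA 2 probes of the 12 were called, both AXL. That count was 0 under the 75th percentile scaling and without the 3 dimmest arrays. It was 1 with each array's own background subtracted and 16 added in place of normexp. It was 1 at an adjusted p under 0.01, and 1 to 2 with 1 array left out (1 without control array 2, 3 or 4 or EZH2 siRNA array 1 or 4). Over all probes 733 were called, and 144, 170, 381 and 237 under those settings in turn, with 278 to 1289 when an array was left out and 1284 with array weights. The 75th percentile scaling split its 144 calls into 9 higher and 135 lower, and own background its 381 into 120 and 261, beside 318 and 415. Between control siRNA and untransfected cells the count of 0 became 1 with array weights (VIM ILMN_2058251, lower) and stayed 0 to 0 with 1 array left out. Over all probes its 1128 calls (673 higher, 455 lower) became 310 (252 and 58) under the 75th percentile scaling, 732 with own background, 1865 with array weights, 528 at an adjusted p under 0.01 and 679 to 1194 with 1 array left out. Against untransfected cells the 4 calls became 0 under the 75th percentile scaling, 3 with cyclic loess, 2 with own background, 2 with the 2 groups fitted alone, 2 at an adjusted p under 0.01, 1 without the 3 dimmest arrays (SNAI2, higher), and 2 to 4 with 1 array left out (2 without EZH2 siRNA array 1). Its 2943 calls over all probes (1531 higher, 1412 lower) became 486 (178 and 308) under the 75th percentile scaling, 1132 without the 3 dimmest arrays, 1329 at an adjusted p under 0.01 and 1929 to 3213 with 1 array left out. The fits without arrays hold fewer samples, and the 75th percentile scaling and own background settings keep all 12 arrays. The cause of these losses was not tested.

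Of 966 results of the 12 probes over the alternatives, 883 kept direction and side of the threshold, 32 lost a call, 3 gained one and 48 changed sign, none of these a called value. Under the 75th percentile scaling the sign turned for CDH2 (0.013), AXL ILMN_1701877 (0.19), ACTA2 (0.12), EPCAM ILMN_2160210 (0.12) and EPCAM ILMN_2160209 (-0.078) between control siRNA and untransfected cells. Against control siRNA it turned for EPCAM ILMN_2160210 (-0.31), SNAI2 (-0.26 and -0.12) and TWIST1 (-0.19), and against untransfected cells for ZEB1 (0.071) and EPCAM ILMN_2160209 (-0.0063). With cyclic loess EPCAM ILMN_2160209 turned to -0.087 and -0.021, and VIM ILMN_1782538 to 0.036 and -0.088. With array weights EPCAM turned to -0.040, -0.13 and -0.056 and AXL ILMN_1701877 to 0.079. With brightness as a covariate EPCAM ILMN_2160209 turned to -0.051, ZEB1 to 0.0033, TWIST1 to -0.028 and AXL ILMN_1701877 to 0.0066. Without the 3 dimmest arrays EPCAM turned to 0.16, -0.16 and -0.057, TWIST1 to -0.00066 and AXL ILMN_1701877 to 0.071. In the same fit COCH, which is not among the 12 probes but ran like CDH2, turned to 0.022 against control siRNA.

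With 1 array left out, values that turned ranged from -0.067 to 0.092 and -0.15 to 0.0088 for EPCAM ILMN_2160210 against control siRNA and untransfected cells. For EPCAM ILMN_2160209 the ranges were -0.12 to 0.12, -0.15 to 0.19 and -0.13 to 0.20 in the 3 comparisons. ZEB1 ranged from -0.17 to 0.027 against untransfected cells and SNAI2 ILMN_2082585 from -0.015 to 0.15 against control siRNA. Between control siRNA and untransfected cells TWIST1 ranged from -0.032 to 0.12, AXL ILMN_2364521 from -0.12 to 0.12 and AXL ILMN_1701877 from -0.12 to 0.072.

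Samples of the same number did not all deviate together (correlations of -0.38 to 0.46), nor did each correlate best with its own number, so the numbers were not taken as pairs. With the replicate number as a block the counts stayed at 2, 0 and 4, with 767 calls over all probes against control siRNA. Signals near background limit what CDH1, FN1, ZEB1, CLDN7 and the second EPCAM probe can show.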
